A study of Mus musculus with 20 samples.

Results

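Sites of p65 and SOCS1 were described at 7 genes that add, remove or read ubiquitin in the NF-κB pathway: Tnfaip3, Tnip1, Tnip3, Cyld, Otud7b, Birc3 and Traf1. A peak was assigned to a gene where its centre lay within 10 kb of the gene's span in the mm10 build. Peaks of the 12 lists that overlapped by at least 1 bp were merged into 1 site, which gave 82 sites from 240 peaks, of 96700 merged regions in the whole series. The cells were mouse bone-marrow-derived macrophages, differentiated with M-CSF for 5 days. They were wild type (WT; the design text spells the strain C65BL6) or a knockout (KO) that the same text calls NOS1 KO, whereas the study's title is about SOCS1. Each genotype was studied without treatment (control) and after 30 min or 8 h of lipopolysaccharide (LPS, part of the bacterial outer membrane and a ligand of TLR4) at 100 ng/mL. Each antibody, genotype and treatment had 1 CUT&RUN library, a method in which an antibody directs a nuclease to cut out the bound DNA. The labels do not say which animals the cells came from or whether animals were pooled.

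NF-κB is held inactive in resting macrophages and is released when receptors such as TLR4 build chains of ubiquitin that recruit kinases. A20, the product of Tnfaip3, takes part in editing and capping these chains, and Tnip1 (ABIN-1) and Tnip3 (ABIN-3) encode proteins that bind A20 and ubiquitin. Cyld and Otud7b (Cezanne) encode deubiquitinases, Birc3 encodes the ubiquitin ligase cIAP2, and Traf1 encodes an adaptor that binds cIAP proteins. Several of these genes are known as targets of NF-κB themselves, so that the pathway induces its own brakes. p65 (RELA) is the NF-κB subunit with the main transactivation domain, and SOCS1 is a feedback inhibitor of cytokine signalling.

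The promoters are shown first because 4 of the 6 members in RefSeq's promoter table held a match to the κB consensus, the sequence family that NF-κB dimers recognise. Each line gives the bases of the promoter window (250 bases before to 50 after the listed start) that lie outside the gene span (at Cyld also the few bases inside it that complete the match), read 5′ to 3′ on the strand of the gene in GRCm38.p6 (mm10), with the matches in capitals.
Tnfaip3, chr10:19015411-19015660, minus strand: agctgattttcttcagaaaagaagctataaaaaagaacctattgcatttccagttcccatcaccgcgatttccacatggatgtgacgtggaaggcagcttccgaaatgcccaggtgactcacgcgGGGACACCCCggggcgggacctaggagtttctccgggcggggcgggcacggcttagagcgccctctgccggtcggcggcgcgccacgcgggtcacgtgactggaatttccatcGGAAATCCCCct
Tnip1, chr11:54962957-54963190, minus strand: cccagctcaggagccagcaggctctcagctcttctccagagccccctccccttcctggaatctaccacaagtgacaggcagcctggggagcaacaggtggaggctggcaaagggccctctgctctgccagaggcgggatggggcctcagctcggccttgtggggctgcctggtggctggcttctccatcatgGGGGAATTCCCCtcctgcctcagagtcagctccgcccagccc
Tnip3, chr6:65590148-65590397, plus strand: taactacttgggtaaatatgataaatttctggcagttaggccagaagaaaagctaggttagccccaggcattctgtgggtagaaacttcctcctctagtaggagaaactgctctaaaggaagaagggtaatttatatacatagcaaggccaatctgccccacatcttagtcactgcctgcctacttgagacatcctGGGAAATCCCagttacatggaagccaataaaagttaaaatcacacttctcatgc
Cyld, chr8:88696778-88696882, plus strand: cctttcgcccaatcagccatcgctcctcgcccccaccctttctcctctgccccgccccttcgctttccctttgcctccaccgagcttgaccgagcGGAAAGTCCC
Tnfaip3 held 2 separate matches, and Tnip1 held 3 overlapping matches that form the single run in capitals. Otud7b had no entry in the table, and Birc3 and Traf1 held no match to the consensus in these windows. The consensus was present in 4.51% of 32851 promoter windows and in 6.14% of the 5052 windows that overlapped a p65 peak of WT cells at 30 min. A looser pattern, GGG and CC separated by any 5 bases, was in the windows of 5 of the 6 members, Birc3 included, and in 50.8% of all windows. Of 3 other patterns searched on both strands, TTCNNNGAA (8.30% of all windows) was found in Tnip1 alone among the members and TGANTCA (7.81%) in Tnfaip3 alone. An interferon-response pattern, GAAA and GAAA separated by any 2 bases (3.44%), was in none of the 6. The κB run of Tnip1 lay inside the called peak in 1 p65 list and 3 SOCS1 lists, and the match of Tnip3 inside the peak in 2 SOCS1 lists. For Tnip1 the p65 list was that of KO cells at 8 h, with peaks 493 bp wide. The SOCS1 peaks that held the run were 260 to 396 bp wide, and the other p65 peaks there 222 to 254 bp. These counts therefore do not compare the antibodies. The upstream match of Tnfaip3 lay inside a peak in the SOCS1 list of KO control cells, and no peak held the match of Cyld. A match is a description of the letters and not of binding.

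All values are the authors' own Normalized Tag Count, the tags in a peak scaled to a library of 10000000 tags, called tag count from here on. The p65 libraries held 7.69 to 18.4 M tags (10 M are 10000000) and the SOCS1 libraries 6.93 to 9.74 M, with 2.12% to 15.2% of tags in peaks. Intervals are exact 95% Poisson or conditional binomial intervals for counting error only, since PCR copies are not independent molecules and there were no replicates. No difference between groups could be tested. A site that a list did not call is not shown to be unbound, since the lowest-scoring peak of each list, at 7 to 12 tags, marks what could be called. In bulk cells, a tag count cannot separate more bound cells from more binding per cell. Peaks of the p65 list of KO cells at 8 h were 493 bp wide and at least 986 bp apart, against 222 to 414 bp in the other lists, and wider peaks take in more tags. Of 8 macrophage marker genes, 6 to 8 had a peak in each list, against 0 to 5 of 5 neutrophil, 0 to 3 of 5 lymphocyte and 3 to 4 of 4 dendritic cell markers; their part in the results was not tested.

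LPS was accompanied by p65 peaks at all 7 genes in WT cells. The number with a p65 peak was 4 of 7 before LPS (32.7% of 21883 protein-coding genes), 7 of 7 at 30 min (61.9% of genes) and 7 of 7 at 8 h (55.9%). In KO cells the count was 5 of 7 in controls (35.8%), 7 of 7 at 30 min (65.4%) and 6 of 7 at 8 h (55.5%). Tnfaip3, Tnip3 and Traf1 had no p65 peak in WT control cells, Tnfaip3 and Otud7b had none in KO control cells, and Tnip3 had none in KO cells at 8 h. Tnfaip3 was thus the member without a p65 peak in control cells of either genotype. All 3 members without a p65 peak in WT control cells had one at 30 min, where 46.4% of such genes did, and at 8 h, where 38.9% did. Both members without one in KO control cells had one at 30 min (48.7% of such genes) and at 8 h (38.2%).

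SOCS1 peaks were present at most members already in control cells. In WT cells 6 of 7 had one in controls (32.4% of genes), 7 of 7 at 30 min (47.7%) and 7 of 7 at 8 h (38.6%). In KO cells 7 of 7 had one in controls (55.3%), 6 of 7 at 30 min (51%) and 6 of 7 at 8 h (44.6%). The member without a SOCS1 peak was Tnfaip3 in WT control cells and in KO cells at 30 min, and Cyld in KO cells at 8 h. The windows of the members were longer than most, with a median of 63.6 kb against 37.2 kb over all genes, so peaks were also counted per length. Per 100 kb of window, the members of WT cells held 2.21 p65 peaks without LPS, 6.38 at 30 min and 8.34 at 8 h, against 0.706, 2.47 and 2.13 over all genes. In KO cells the p65 density was 1.96, 8.58 and 3.19, against 0.807, 2.93 and 1.72. For SOCS1 it was 2.94, 5.64 and 4.90 in WT cells and 5.39, 5.39 and 3.92 in KO cells, against 0.725, 1.45 and 1.02 and 1.68, 1.48 and 1.18. Pooled over the 7 windows, the density was above that of all genes in each of the 12 lists. This did not hold for each member: at 30 min Cyld had 1 p65 peak in 75.1 kb in each genotype. At that time Tnip3 had 1 in 63.6 kb in WT cells.

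**Figure D1:**
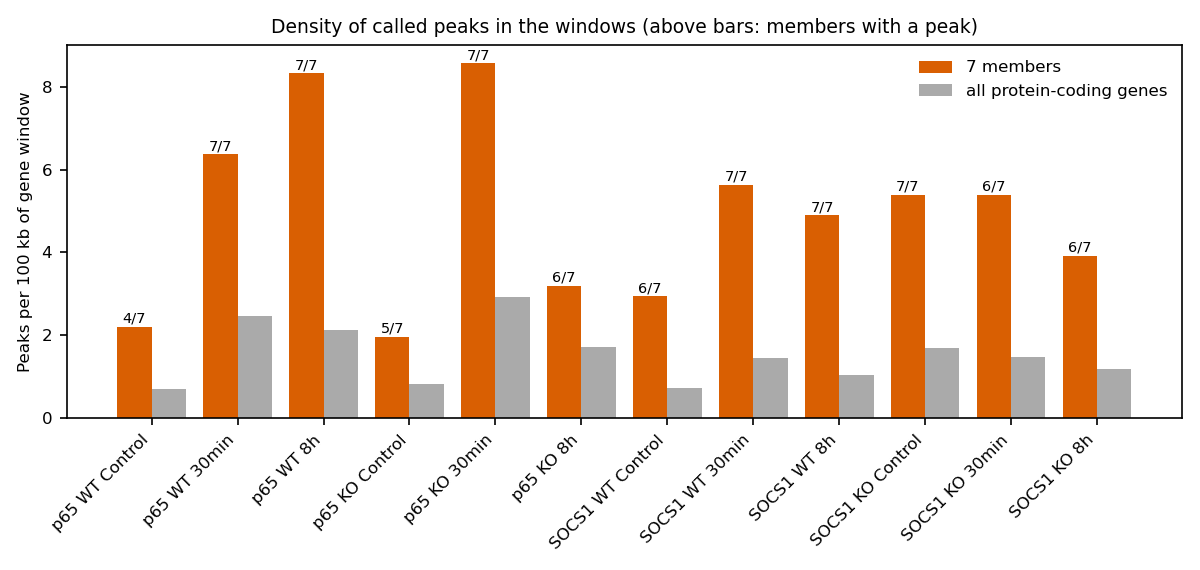
Called peaks per 100 kb of gene window (y axis) in each of the 12 lists (x axis), for the 7 members (orange) and all protein-coding genes (grey), with the number of members that had a peak above each orange bar. The p65 bars of the members run from 1.96 in KO control cells to 8.58 in KO cells at 30 min, and each lies above its grey bar.

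Tnfaip3, which encodes A20, had 1 or 2 p65 peaks per LPS list in its window of 34.5 kb, with sums below those of Tnip1 and Traf1. Its p65 sum in the LPS lists was above that of 73.4% to 89.2% of all genes, those without a peak included. Its summed p65 tag count in WT cells was 147 (95% interval 127 to 169) at 30 min and 114 (94.8 to 137) at 8 h, and in KO cells 89.5 (76.4 to 104) and 133 (113 to 157). The promoter site, chr10:19015482-19015952, with its centre 307 bp before the listed start site, was called for p65 at 30 min alone, at 74.7 in WT and 89.5 in KO cells. Another p65 peak of WT cells at 30 min, at 72.1, lay beyond the 3′ end of the gene, 4.16 kb from the span. At 8 h p65 was called at 51.5 in WT cells, 3.57 kb before the start site. At 8 h it was also called at 62.3 in WT and 133 in KO cells at chr10:18995895-18996448, beyond the 3′ end and 4.74 kb from the span. The KO to WT ratio there was 2.14 (1.59 to 2.91), and 1.04 per 100 bp of peak width. SOCS1 at this flank site was 42.1 in WT cells at 30 min and 34.1 and 50.2 in KO cells (control, 8 h). No peak of any list had its centre inside the Tnfaip3 span, and the 5 sites lay on its flanks. The summed p65 count at 30 min was lower in KO than WT cells, with a ratio of 0.610 (0.492 to 0.752), but taking the highest peak in place of the sum turned the ratio to 1.20. On the authors' scale, the summed SOCS1 count was highest in KO control cells, at 133 (109 to 160.5), against 42.1 and 35.2 in WT cells at 30 min and 8 h and 84.9 in KO cells at 8 h. The KO ratio of 8 h to control was 0.639 (0.463 to 0.877), and scaling to tags in peaks turned it to 1.11. The KO control list called SOCS1 at the promoter site at 67.0, and its peaks mostly had no IgG tag: 20 of its 22 peaks at the members were at the IgG floor of 0.5 tags, against 88.0% of the whole list, as were 7 of 8 in the p65 list of KO control cells, against 91.4% of that list.

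Tnip1, encoding the A20 partner ABIN-1, had the highest summed tag count of the 7 genes in each LPS list of either antibody. In control cells Tnip3 had a higher sum for p65 in KO (72.8 against 61.4) and for SOCS1 in WT (141.4 against 49.1). Its summed p65 count in WT cells was 96.3 (75.6 to 121) in controls, 1057 (1002 to 1114) at 30 min and 1221 (1155 to 1289) at 8 h. In KO cells it was 61.4 (46.2 to 80.2), 1598 (1541 to 1657) and 621 (575 to 669). The ratios of 30 min to control were 11 (8.69 to 14.1) in WT and 26.0 (19.9 to 34.7) in KO cells, against medians over all genes with peaks in both lists of 3.30 and 3.35. At 8 h the ratios to control were 12.7 (10.0 to 16.3) in WT and 10.1 (7.65 to 13.6) in KO cells, with medians of 2.21 and 2.54. Without LPS the KO to WT ratio was 0.638 (0.441 to 0.919), at 30 min it was 1.51 (1.42 to 1.61) and at 8 h 0.509 (0.463 to 0.558). The 30 min value compares 8 peaks in the KO list with 6 in the WT list, and the 8 h value 3 with 8. At the site called in all 12 lists the ratios were 1.18 (0.638 to 2.22), 0.863 (0.743 to 0.998) and 1.11 (0.903 to 1.37) in the same order. At the promoter site they were 1.36 (1.22 to 1.51) at 30 min and 0.805 (0.665 to 0.973) at 8 h. At the other sites that both lists called at 30 min they were 1.02, 1.06 and 1.09, and each interval included 1. Sites with p65 at 93.3, 169.5 and 169 in KO cells at 30 min were not called in WT cells then. A site at 18.0 in WT cells was not called in KO cells.

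Of the 18 sites of Tnip1, 9 were called in at least 4 lists, and 3 of them carried most of the p65 signal after LPS. The promoter site, chr11:54962842-54963361, centred 162 bp before the start site, was called in the 8 LPS lists and in no control list. There p65 reached 393 (360.4 to 429) in WT and 533 (499.9 to 567) in KO cells at 30 min, and 230.4 and 186 at 8 h. These were the 31st of 36030 peaks in the WT list and the 33rd of 43124 in the KO list at 30 min by tag count. SOCS1 at the promoter site was 101 at 30 min and 36.8 at 8 h in WT cells, and 78.5 and 54.7 in KO cells. On the authors' scale, promoter p65 and SOCS1 counts were both higher at 30 min than at 8 h in each genotype, with overlapping intervals for SOCS1 in KO cells (60.9 to 98.3 and 40.0 to 74.5). In WT cells the centre of the middle κB match lay 127.5 bp from the p65 peak centre at 30 min and 168.5 bp at 8 h. The TTCNNNGAA match of the same promoter, chr11:54963131-54963139, lay 3 to 58 bp from the peak centres of all 8 lists, an observation made after the positions were seen.

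The site inside Tnip1 at chr11:54936149-54936667, 26.5 kb past the start site, had the opposite order in time. There p65 was 193 (171 to 219) at 30 min and 382 (346 to 422) at 8 h in WT cells, the latter the 25th of 31007 peaks, and 205 and 252 in KO cells. SOCS1 at this site was 91.3 at 30 min and 152 at 8 h in WT cells and 47.2, 99.9 and 122 in KO cells (control, 30 min, 8 h). Counts for either antibody were higher at 8 h than at 30 min in both genotypes, but in KO cells the intervals overlapped for either antibody, and the p65 peaks compared were 493 and 222 bp wide. The remaining one of the 3, chr11:54972017-54972609, was called in all 12 lists and lies 9.37 kb before the start site, though Anxa6, an annexin gene, is nearer at 6.64 kb. It had p65 counts of 26.0, 251 and 165 in WT and 30.7, 217 and 184 in KO cells (control, 30 min, 8 h). SOCS1 there was 19.5, 59.0 and 28.4 in WT and 41.6, 53.3 and 73.3 in KO cells. In WT cells either count was higher at 30 min than at 8 h. In KO cells the intervals of the LPS times overlapped for p65 (196 to 239 and 159 to 211, from peaks 222 and 493 bp wide) and for SOCS1 (39.8 to 71.1 and 55.6 to 95).

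The other named sites of Tnip1 had p65 counts of at most 169.5. Inside the gene, chr11:54955526-54956032 was called for p65 in WT control cells at 50.1 and reached 97.2 at 30 min, 121 at 8 h and 106 in KO cells at 30 min, with SOCS1 at 41.6 and 51.5 in KO cells (control, 8 h). The neighbouring sites chr11:54933845-54934384 and chr11:54934401-54934775 had p65 counts between 30.7 and 119 and SOCS1 counts between 54.4 and 149. That highest SOCS1 count, in KO cells at 30 min, was above the 99.9, 78.5 and 53.3 of the 3 main sites in the same list. Sites at chr11:54961264-54962012 and chr11:54964836-54965362, on either side of the promoter, had p65 counts of 169.5 and 169 in KO cells at 30 min. SOCS1 was 36.6 and 48.3 at the former in KO cells (control, 8 h), and 61.1, 21 and 47.2 at the latter in WT cells at 30 min and 8 h and in KO controls. At chr11:54920922-54921565 no count exceeded 34.0. None of these 6 sites was called for p65 in KO cells at 8 h.

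The summed SOCS1 count of Tnip1 in WT cells was 49.1 (34.0 to 68.6) in controls, 418 (378 to 460.3) at 30 min and 307 (273 to 344) at 8 h, higher after LPS like p65. In KO cells it was already 288 (252 to 328) in controls and was 469.9 (427 to 517) and 415 (372 to 464) after LPS. The KO to WT ratio was 5.87 (4.08 to 8.68) in control cells, against a median of 2.12 over all genes, but it was 1.59 for the highest peak and 1.87 when scaled to tags in peaks. The control sums compare 8 peaks in KO with 2 in WT cells. At the only site called in both control lists the ratio was 2.13 (1.09 to 4.21). At 8 h the ratio of the sums was 1.35 (1.152 to 1.59). It turned to 0.937 per 100 bp of peak width, 0.797 for the highest peak and 0.874 when scaled to tags in peaks.

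**Figure D2:**
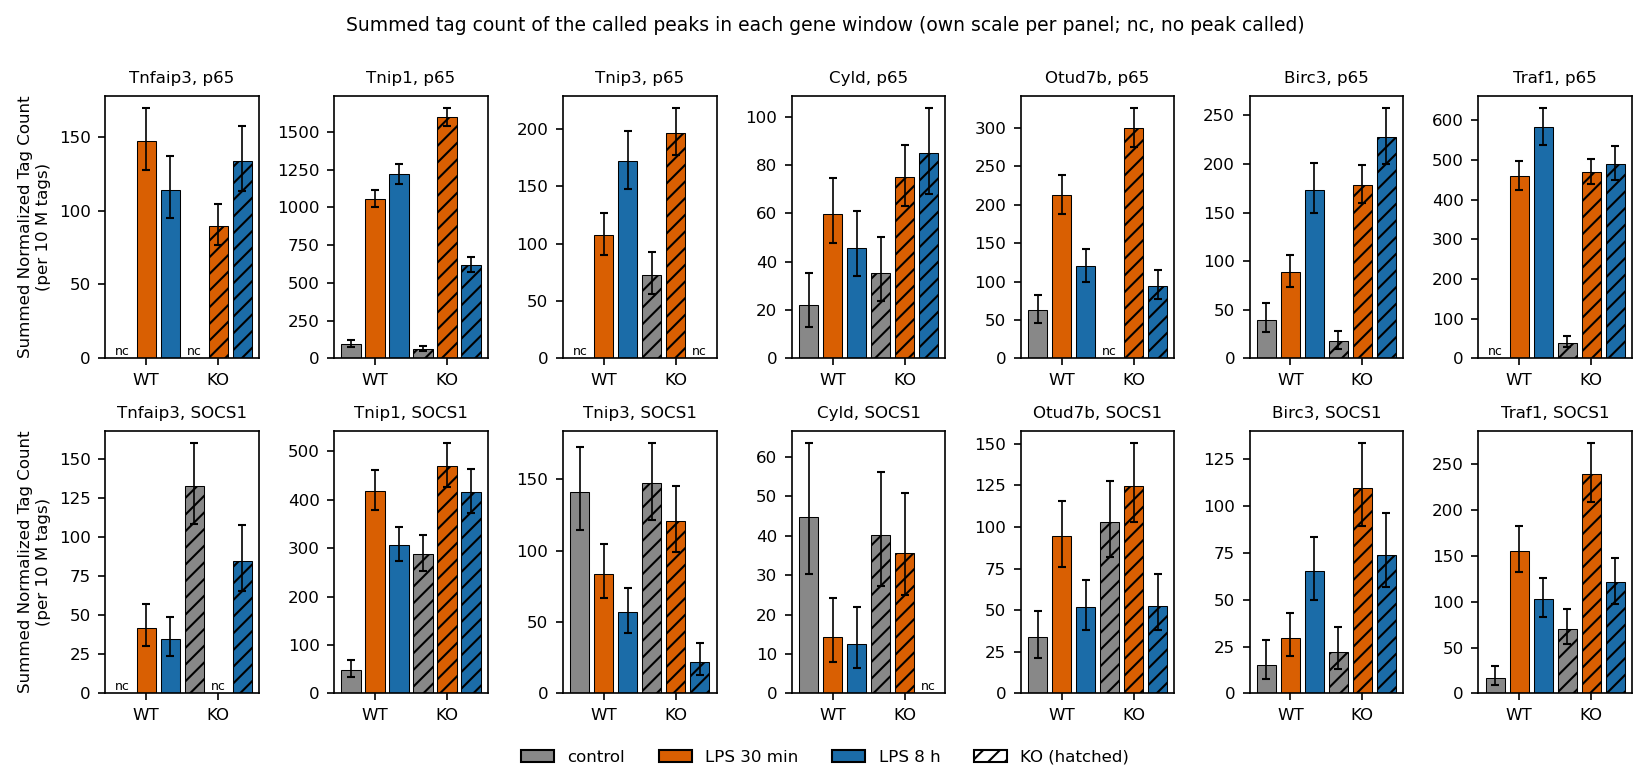
Summed tag count of the called peaks in each member's window (y axis, per 10000000 tags, a scale of its own in each panel) for p65 (top) and SOCS1 (bottom), by genotype and treatment, with exact 95% Poisson intervals and nc where no peak was called. Tnip1 stands at 96.3, 1057 and 1221 for p65 in WT cells, and Tnip3 and Cyld have their highest WT SOCS1 bar in control cells.

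Tnip3, encoding ABIN-3, had its most frequent site at the start of the gene. At chr6:65590064-65591003, p65 was not called in WT control cells and was 108 (90.5 to 126) at 30 min and 94.0 (76.8 to 115) at 8 h, while in KO cells it was 29.6 in controls, 93.8 at 30 min and not called at 8 h. SOCS1 at this site was 28.1 and 26.3 in WT cells (control, 8 h) and 47.2 and 56.6 in KO cells (control, 30 min). The site is 940 bp wide, and the SOCS1 peaks of KO cells in controls and at 30 min did not overlap. A site 5.04 kb upstream, chr6:65585144-65585568, was called in 4 lists, all after LPS, with p65 at 34.9 in WT cells at 8 h and 53.7 in KO cells at 30 min. The other 12 sites of Tnip3 were in 1 to 3 lists each and held counts of 13.9 to 49.1, and 8 of them had SOCS1 peaks alone. The p65 sum was 108 and 172 in WT cells (30 min, 8 h) and 72.8 and 197 in KO cells (control, 30 min). The KO to WT ratio of p65 at 30 min was 1.83 (1.51 to 2.24) for the sum but 0.871 for the highest peak.

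The summed SOCS1 count of Tnip3 was lower at 8 h than in controls in each genotype. It was 141 (115 to 172), 83.8 (66.9 to 104) and 57.3 (42.7 to 74.1) in WT cells and 147 (121 to 175), 121 (99.3 to 146) and 21.9 (12.7 to 35.0) in KO cells. The 8 h to control ratio was 0.405 (0.283 to 0.565) in WT cells, where the median over all genes was 0.883, and 0.149 (0.0842 to 0.249) in KO cells, where it was 0.648. These sums compare different sites. Only the site at the start of the gene was called for SOCS1 in both WT lists, with a ratio of 0.936 (0.507 to 1.84). The 1 peak of KO cells at 8 h lay at a site that KO controls, with 4 peaks, did not call. In WT cells 30 min and 8 h could not be ordered: their intervals overlapped, and the ratio to control was 0.593 and 0.405 for the sum, but 0.440 and 0.536 for the highest peak and 0.309 and 0.347 when scaled to tags in peaks. At 30 min the KO to WT ratio of SOCS1 was 1.44 (1.07 to 1.93), but it turned to 0.827 per 100 bp of peak width and to 0.964 when scaled to tags in peaks. No SOCS1 site was called in both genotypes at that time.

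Cyld, encoding a deubiquitinase that removes linear and K63-linked chains, had its peaks at its promoter alone. In a window of 75.1 kb, its 4 sites all lay within 1.68 kb of the start site. The promoter site, chr8:88696371-88696863, centred 411 bp before the start site and 8.14 kb from the neighbouring gene Nod2, was called in 9 lists. There p65 was 59.7 (47.6 to 74.7) at 30 min and 24.6 (16 to 36.0) at 8 h in WT cells and 35.3, 74.9 and 85.0 in KO cells (control, 30 min, 8 h). SOCS1 was 27.4 and 12.6 in WT cells (control, 8 h) and 40.3 and 35.7 in KO cells (control, 30 min). The p65 sum was 2.70 times (1.60 to 4.89) the WT control at 30 min, below the all-gene median of 3.30. Scaling to tags in peaks turned this ratio to 0.434. It compares different sites, since the promoter site was not called for p65 in WT controls. The WT control peak, at 22.1, lay at a site 309 bp past the start site that was not called at 30 min. The SOCS1 sum of Cyld in WT cells was 44.7 (30.4 to 63.5) in controls, 14.4 (7.85 to 24.1) at 30 min and 12.6 (6.52 to 22.0) at 8 h. The SOCS1 peak at 30 min lay at a site that no other list called. At 8 h the p65 ratio of KO to WT was 1.86 (1.28 to 2.64), but 0.900 per 100 bp of peak width.

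Otud7b, encoding the deubiquitinase Cezanne, had the most sites of the 7 genes and low counts at each. Its 20 sites held single counts of 8.41 to 58.3 across the 12 lists, and 9 of them were in 1 list. The p65 sum was 62.5 (46.0 to 82.8), 213 (188 to 239) and 119.9 (100.0 to 143) in WT cells, and 299 (275 to 326) and 94.1 (77.3 to 115) in KO cells at 30 min and 8 h, with none called in KO controls. The SOCS1 sum was 33.9, 94.5 and 52.0 in WT and 103, 125 and 52.7 in KO cells. On the authors' scale the sum was highest at 30 min for either antibody and genotype, although the SOCS1 intervals of KO cells in controls (82.1 to 128) and at 30 min (103 to 150.4) overlapped. The WT p65 ratio to control was 3.40 (2.50 to 4.72) at 30 min and 1.92 (1.37 to 2.74) at 8 h, but scaling to tags in peaks turned these to 0.547 and 0.418, and the highest peak gave 0.854 at 8 h.

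Of the named sites of Otud7b, chr3:96098360-96098718, 5.97 kb from the span, was in 6 lists with p65 at 25.4, 38.7 and 15.6 in WT cells and 38.5 in KO cells at 30 min. A site inside the gene, chr3:96134846-96135410, had p65 at 18.9 and 38.3 in WT cells (control, 30 min) and 40.4 in KO cells at 30 min. The highest count of the gene was SOCS1 at 58.3 in KO control cells, at chr3:96160471-96160900. That site and 3 others, chr3:96159878-96160300, chr3:96161378-96161891 and chr3:96151780-96152436, lie near the gene Mtmr11, which has 17 of the 51 Otud7b peaks within 10 kb. At the first of the 3, p65 was 43.9 and 15.6 in WT cells (30 min, 8 h), with SOCS1 at 33.9 in WT controls and 18.7 in KO cells at 30 min. At the second, p65 was 16.1 in WT cells at 8 h and 31.5 and 43.6 in KO cells (30 min, 8 h), with SOCS1 at 19.5 and 20.6. The weakest of the named sites were the last of these, with counts of 9.38 to 21.1, and chr3:96146417-96146909, with 8.41 to 20.0.

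Birc3, encoding the ubiquitin ligase cIAP2, had a promoter site called in 11 of the 12 lists. At chr9:7872727-7873726, centred 56 bp before the start site, p65 was 26.7, 52.5 and 54.8 in WT and 17.6, 59.1 and 119.6 in KO cells. SOCS1 there was 15.2, 29.8 and 20.5 in WT cells and 22.3 and 42.8 in KO cells, with no peak in KO cells at 8 h. The site is 1000 bp wide and joins peaks that do not all overlap. In WT cells the p65 peak of controls, chr9:7872856-7873214, did not overlap that at 30 min, chr9:7873268-7873522. No p65 peak of Birc3 overlapped a SOCS1 peak of the same treatment in WT cells. The KO value of p65 at 8 h was 2.18 times (1.60 to 3.04) the WT value, and 1.06 times per 100 bp of peak width. A site inside the gene, chr9:7856927-7857608, was called in 5 LPS lists, with no count above 23.6. Of the other sites, those at chr9:7837304-7837834 and chr9:7837974-7838234 lie 0.438 and 0.973 kb from Birc2, the neighbouring gene for cIAP1, and so nearer to it than to Birc3.

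On the authors' scale, the summed p65 count of Birc3 was higher after LPS in each genotype. It was 39.7 (27.4 to 57.2), 88.6 (73.3 to 106) and 173 (149.6 to 201) in WT cells, and 17.6 (9.55 to 28.2), 179 (159.7 to 199) and 227 (200.0 to 257) in KO cells. The KO ratios to control were 10.2 (6.25 to 18.9) at 30 min and 12.9 (7.92 to 24.1) at 8 h, above medians of 3.35 and 2.54. For the highest peak these were 3.36 and 6.80, and scaled to tags in peaks 1.70 and 2.74. In WT cells the ratio at 30 min was 2.23 (1.47 to 3.38), and scaling to tags in peaks turned it to 0.358 and the 8 h ratio of 4.37 to 0.951. The SOCS1 sum was 15.2, 29.8 and 65.1 in WT and 22.3, 109.8 and 74.0 in KO cells, the last without a peak of 52.8 that lay just past the 10 kb limit. At 30 min its KO to WT ratio was 3.68 (2.42 to 5.79), against a median of 1.45, and it compares 3 peaks with 1; the highest peak alone gave 1.57.

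Traf1, encoding the adaptor that binds cIAP proteins, had the highest p65 sum after Tnip1 in each LPS list. Its p65 sum was 459.8 (424 to 498) at 30 min and 582 (538 to 630.5) at 8 h in WT cells, where controls had no peak. In KO cells it was 39.3 (27.7 to 55.4), 469.8 (439 to 502) and 490.5 (450.4 to 534), which are 12 (8.42 to 17.1) and 12.5 (8.75 to 17.9) times the control, or 5.74 and 6.53 times for the highest peak and 2.00 and 2.65 times when scaled to tags in peaks. The KO to WT ratio of p65 was 1.02 (0.920 to 1.13) at 30 min and 0.843 (0.749 to 0.947) at 8 h, the latter turning to 1.04 for the highest peak. SOCS1 was 17.3 (8.95 to 30.2), 156 (132 to 183) and 103 (83.7 to 126) in WT and 70.8 (53.6 to 91.7), 239.9 (209 to 273) and 122 (97.7 to 148) in KO cells. On the authors' scale it was highest at 30 min in each genotype, but scaled to tags in peaks the WT ratios to control were 4.69 at 30 min and 5.09 at 8 h. The SOCS1 peak of WT controls lay 7.70 kb before the start site, at a site that no other list called. At 30 min the SOCS1 ratio of KO to WT was 1.54 (1.24 to 1.90), but 0.884 per 100 bp of peak width and 1.03 when scaled to tags in peaks.

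The most frequent site of Traf1, chr2:34963114-34963757, lies 1.66 kb before the start site, within the span of the lncRNA gene Gm52552. It was called in 10 lists, with p65 at 206 (183 to 232) and 189 (164 to 217) in WT cells (30 min, 8 h) and 39.3, 225 and 257 in KO cells. SOCS1 there was 58.0 and 37.3 in WT cells and 28.6, 92.2 and 99.1 in KO cells, so neither antibody had a peak in WT controls while both had one in KO controls. Another site inside the gene, chr2:34958214-34958634, 3.35 kb past the start site, had p65 at 189 and 246 in WT cells (30 min, 8 h) and 189 in KO cells at 30 min, with SOCS1 at 46.2, 49.9 and 119.7 in the same conditions. The site was called for p65 and SOCS1 in the same 3 conditions and was not called in KO cells at 8 h. One more site of Traf1, chr2:34954050-34954542, singled out after its values were seen, was called for p65 at 8 h alone, at 114 (94.8 to 137) in WT and 234 (206 to 264) in KO cells. Its KO to WT ratio of 2.05 (1.64 to 2.56) was 0.996 per 100 bp of peak width. Beyond the 3′ end of the gene, chr2:34938592-34939685 was called in 7 lists, with p65 peaks between 15.1 and 35.3 and SOCS1 peaks between 15.8 and 42.2.

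**Figure D3:**
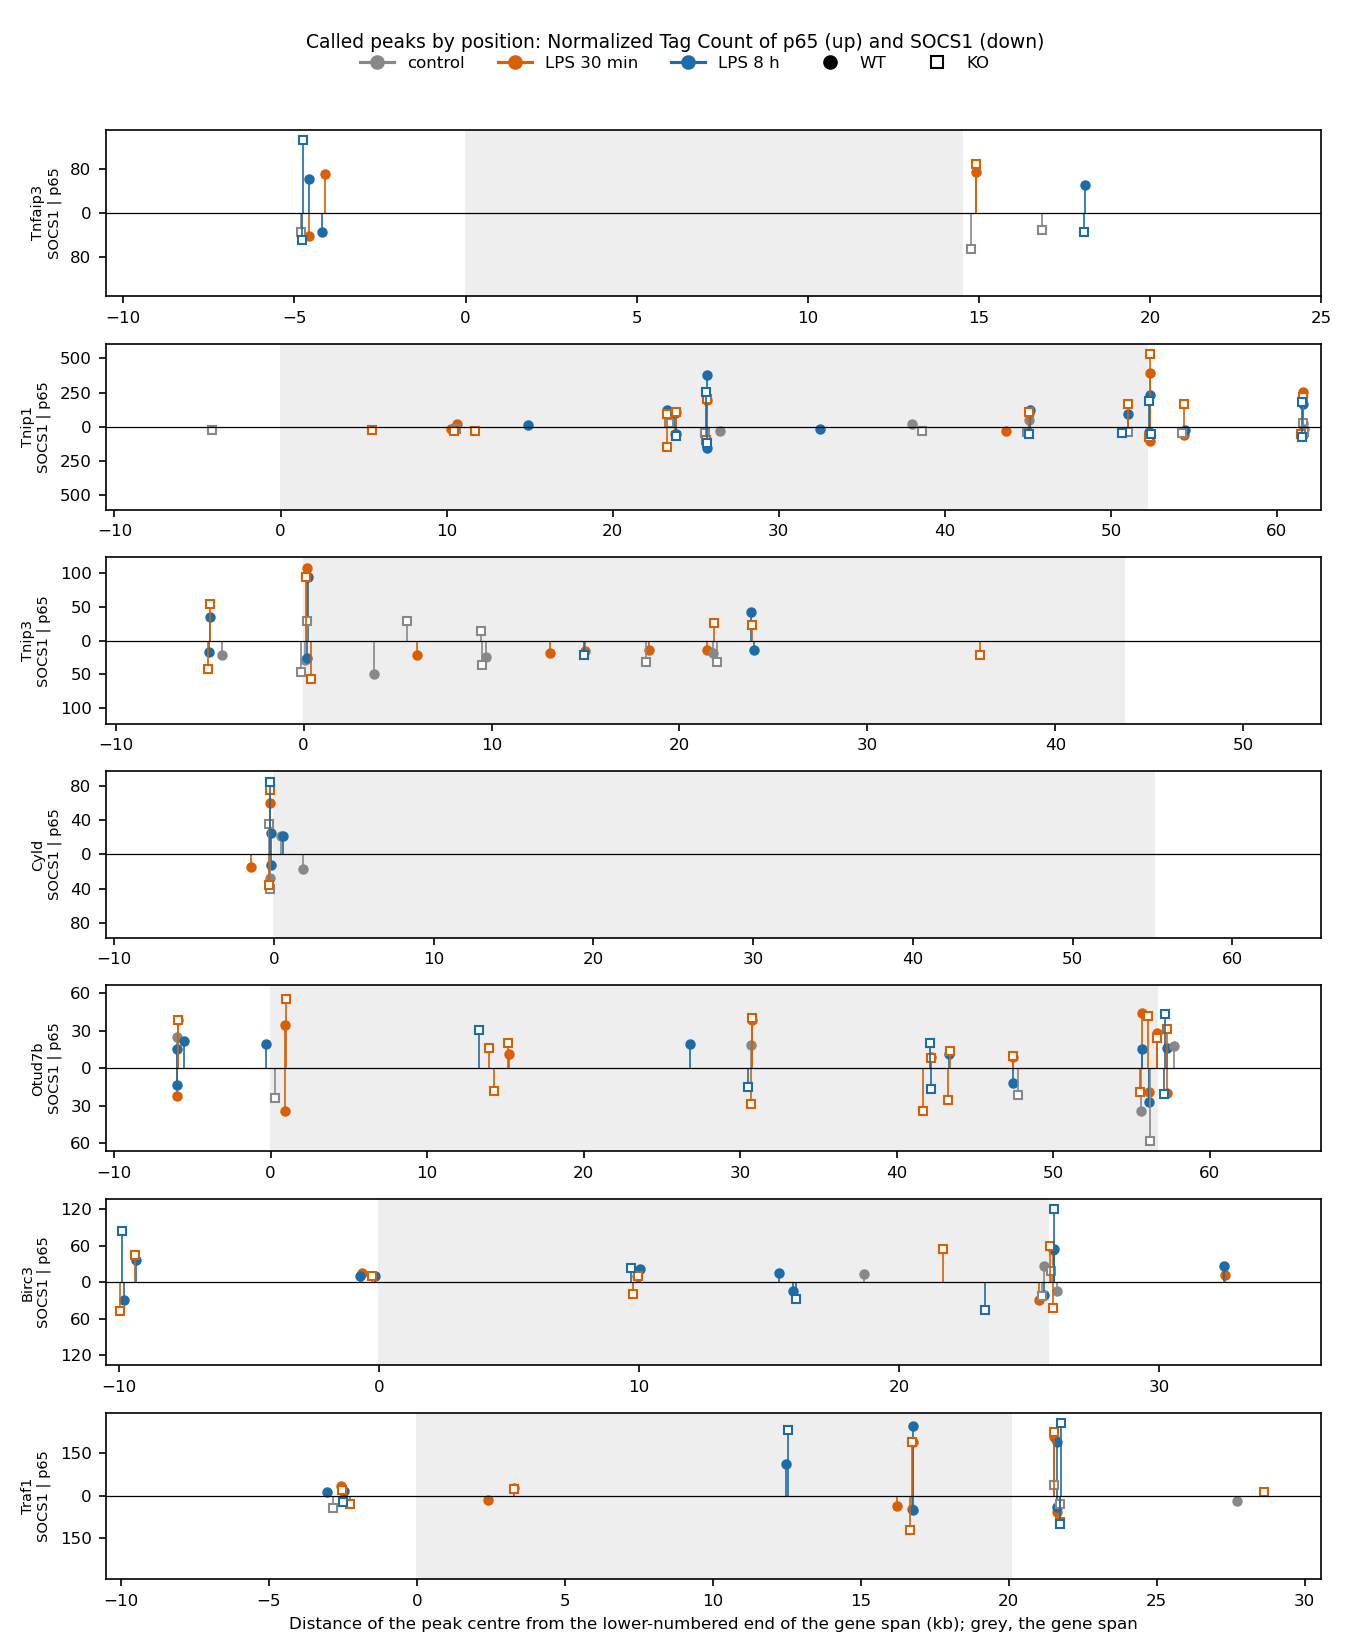
Position of each called peak at the 7 genes (x axis, kb from the lower-numbered end of the gene span, grey) against its tag count (y axis, per 10000000 tags), with p65 drawn upwards and SOCS1 downwards, colours for treatment, filled circles for WT and open squares for KO. The 4 sites of Cyld sit at its start, those of Tnfaip3 on both flanks of the span, and the highest points of Tnip1 at its start site, with p65 at 533.

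Where a member had p65 peaks in both lists, each ratio of LPS to control was above 1 on the authors' scale, whereas SOCS1 ratios lay on either side of 1. These were 4 or 5 of the 7 genes in each p65 comparison, and Tnip3 in KO cells had p65 peaks in controls (72.8) and none at 8 h. Of members with p65 peaks in both lists, the sum was at least 2-fold higher at 30 min in 4 of 4 in WT (75% of genes) and 5 of 5 in KO cells (76.5%). At 8 h it was so in 3 of 4 in WT (54.4%) and 4 of 4 in KO cells (62.1%), and no member was at least 2-fold lower in these 4 comparisons (0.999%, 1.14%, 2.44% and 1.99% of genes in the same order). Most genes with peaks in both lists were also at least 2-fold higher, so these counts are near the background. The members' median ratio was 3.05 at 30 min and 3.22 at 8 h in WT and 10.2 and 11.3 in KO cells, against 3.30, 2.21, 3.35 and 2.54 over all genes. Scaling to the tags in peaks of each list shifted every gene's p65 ratio to control by between -2.64 and -2.20 on the log2 scale, with 2.12% to 2.55% of control tags and 9.72% to 15.2% of LPS tags in p65 peaks. Under that scaling 0 of 4 members in WT cells were at least 2-fold higher at 30 min and 1 at 8 h, and Tnip1 kept ratios of 1.76 and 2.76 in WT and 4.36 and 2.15 in KO cells.

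For SOCS1 the members split. In WT cells 3 of 6 were at least 2-fold higher at 30 min (31.3% of genes) and 1 lower (9%), and at 8 h 3 were higher (13.3%) and 2 lower (19.3%). Tnip1 and Traf1 were higher at both times, with ratios of 8.51 (5.99 to 12.5) and 8.99 (5.01 to 17.8) at 30 min and 6.25 and 5.95 at 8 h, against medians over all genes of 1.42 and 0.883. The control value of Traf1 is 1 peak at 17.3, at a site that no other list called. At the Tnip1 site called in all 12 lists the ratios were 3.03 (1.59 to 5.63) at 30 min and 1.46 (0.712 to 2.90) at 8 h. Tnip3 and Cyld were the 2 that were lower at 8 h, at 0.405 (0.283 to 0.565) and 0.282 (0.132 to 0.565). For the highest peak these were 0.536 and 0.460, so that Tnip3 was not 2-fold lower. In KO cells 2 of 6 were at least 2-fold higher at 30 min (14.5%) and none lower (17.8%). At 8 h 1 was higher (6.65%) and 1 lower (34.7%), namely Birc3 at 3.32 (1.94 to 6.02) and Tnip3 at 0.149. For neither of these was a site called both in KO controls and at 8 h. At 30 min the 2 were Birc3 at 4.92 (2.96 to 8.63) and Traf1 at 3.39 (2.52 to 4.61).

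Between genotypes, few p65 sums differed by 2-fold. In control cells 0 of 3 members with peaks in both lists were at least 2-fold higher in KO (19.3% of genes) and 1 lower (10.4%), Birc3 at 0.443 (0.212 to 0.808). At 30 min 1 of 7 was higher (9.57%), Birc3 at 2.02 (1.63 to 2.51) for the sum but 1.13 for the highest peak, and 0 lower (3.77%). At 8 h 0 of 6 were higher (20.1%) and 0 lower (4.8%). For SOCS1 in control cells 3 of 6 were higher in KO (53.2%) and 0 lower (2.5%): Tnip1 at 5.87, Traf1 at 4.09 (2.17 to 8.37) and Otud7b at 3.04 (1.94 to 5.16), the last turning to 0.970 when scaled to tags in peaks, a scaling under which none of the 6 was at least 2-fold higher. For Traf1 and Otud7b no SOCS1 site was called in both control lists, so their sums compare different sites. The only Tnip1 site called in both, 9.37 kb before its start site, had a SOCS1 ratio of 2.13 (1.09 to 4.21). At 30 min 2 of 6 were higher (30.3%) and 0 lower (4.85%), and at 8 h 1 was higher (31.9%) and 1 lower (3.32%). Those were Birc3 and Cyld at 30 min, at 3.68 and 2.48 (1.31 to 5.10), and Tnfaip3 at 2.41 (1.59 to 3.84) and Tnip3 at 0.382 (0.209 to 0.675) at 8 h. In these ratios of Cyld, Tnfaip3 and Tnip3 no site was called in both lists, so the sums compare different sites.

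At the site level, p65 and SOCS1 were called together at 34 of the 82 sites (41.5%, against 33.9% of all 96700 regions) when any list counted, at p65 alone at 22 and at SOCS1 alone at 26. Within a genotype and treatment, whose p65 and SOCS1 lists share an IgG library, the share of member p65 peaks overlapped by SOCS1 was 1 of 9 in WT controls (24.9% of all p65 peaks). It was 8 of 26 (28.9%) in WT cells at 30 min and 12 of 34 (29.3%) at 8 h. In KO cells it was 6 of 8 (36.9%) in controls, 14 of 35 (27.9%) at 30 min and 8 of 13 (34%) at 8 h. The exact binomial 95% intervals were wide, from 34.9% to 96.8% in KO controls for example, and in each of the 6 conditions the share over all peaks lay inside the interval of the members. The members with a shared peak numbered 1, 3 and 5 in WT (11.8%, 35.2% and 30.8% of genes) and 5, 6 and 5 in KO cells (19.1%, 40.4% and 32.1%). Tnip1 was among them in all 6 conditions. Member p65 peaks shared with SOCS1 had a median tag count of 191 in WT cells at 30 min, against 32.3 for those not shared, and over all peaks the values were 44.7 and 18.4. This was the widest gap of the 6 conditions: the medians were 96.6 and 21.45 in WT cells at 8 h, 84.1 and 31.5 in KO cells at 30 min and 158 and 85.0 at 8 h, but 26.0 (1 peak) and 21.15 in WT controls and 30.15 and 29.85 in KO controls.

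Of the 82 sites, 36 were called in 1 list (43.9%, against 51.9% of all regions), 25 in at least 4 (30.5%, against 25.5%), 12 in at least 6 (14.6%, against 14.3%) and 7 in at least 8 (8.54%, against 7.01%). The spread over lists was thus close to that of all regions. Inside the gene spans lay 54 sites and outside them 28. Among the 62 sites of the 6 genes with a listed start site, the 6 within 500 bp of it were called in a median of 8 lists, and the 52 more than 2 kb away in a median of 2. Of those 6, 4 were called in at least 6 lists, and of those 52, 6 were, while 25 of the 52 were in 1 list. Sites of other genes were not counted by distance, so these counts do not set the members apart. With a limit of 20 kb in place of 10 kb there were 106 sites. The farthest peak inside it was at Birc3, SOCS1 in KO cells at 30 min at 46.7 and 9.97 kb from the span, and the nearest outside it was also at Birc3, SOCS1 in KO cells at 8 h at 52.8. That peak lay 21 bp past the limit and overlapped the member site chr9:7837304-7837834, and with it the SOCS1 sum of Birc3 in KO cells at 8 h would be 126.8 in place of 74.0, above the 109.8 at 30 min. At Tnip1 the values were 19.5 at 9.48 kb and 57.1 at 10.8 kb.

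**Figure D4:**
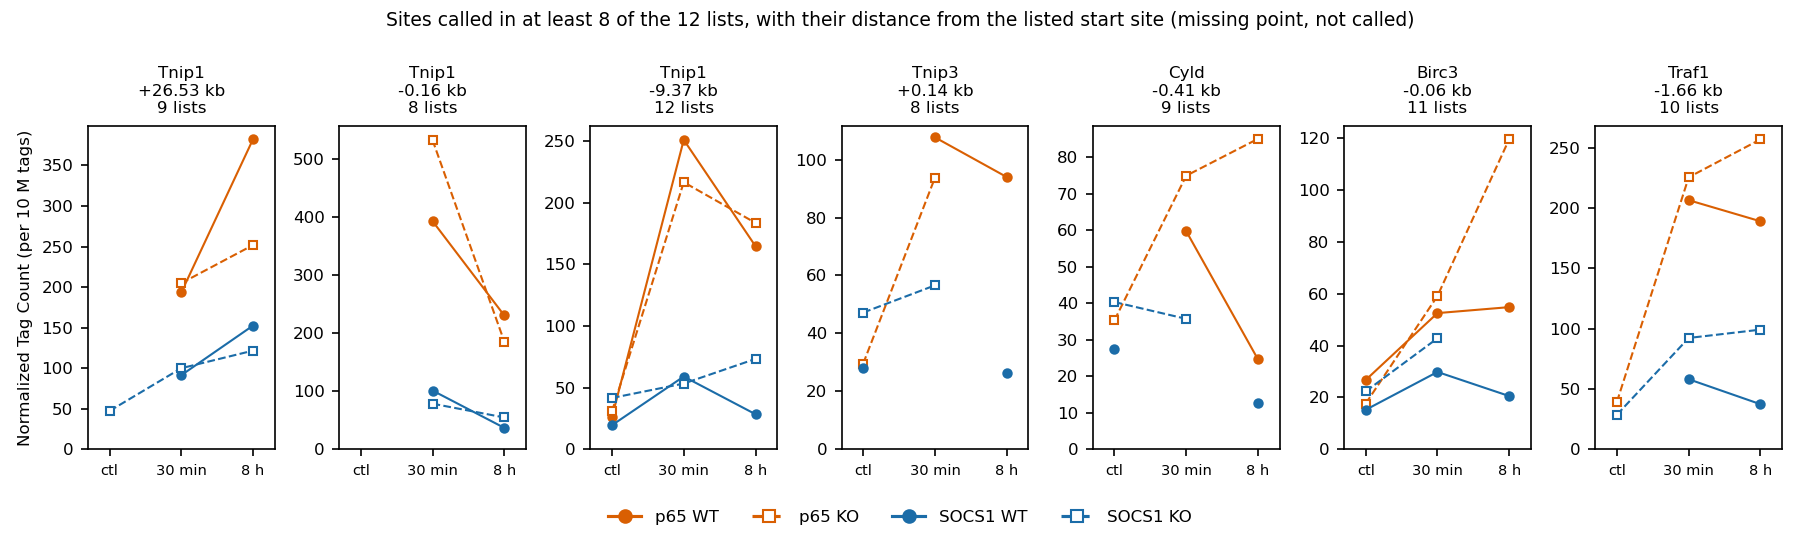
Tag count (y axis, per 10000000 tags) by treatment (x axis) at the 7 sites called in at least 8 of the 12 lists, for p65 (orange) and SOCS1 (blue) in WT (solid line, circles) and KO cells (dashed line, open squares), a point being absent where the list had no peak. The Tnip1 promoter site has p65 at 393 at 30 min and 230.4 at 8 h in WT cells, and the site 26.5 kb past its start has 193 and 382.

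Other ubiquitin regulators of the pathway, a list of 32 genes that includes the linear ubiquitin ligase, the cIAP and TRAF proteins and further deubiquitinases, were counted in the same way. A p65 peak was present at 19 of 32 in WT controls, 32 at 30 min and 30 at 8 h, and at 18, 31 and 29 in KO cells. Over all genes these shares were 32.7%, 61.9% and 55.9% in WT and 35.8%, 65.4% and 55.5% in KO cells, without regard to window length. For SOCS1 the counts were 19, 27 and 23 in WT and 27, 28 and 22 in KO cells, against 32.4%, 47.7% and 38.6% and 55.3%, 51% and 44.6% of all genes. In this list 5 of 32 genes had no p65 peak in control cells of either genotype and a p65 peak in all 4 LPS lists, as Tnfaip3 did and as 10% of all genes did. They were Peli1 (a ubiquitin ligase that acts with TRAF6), Ube2v1 (a cofactor of the K63 conjugating enzyme), Brcc3 (a K63 deubiquitinase), Rnf11 (a partner of A20) and Zranb1 (a deubiquitinase). Their summed p65 counts in WT cells at 30 min and 8 h were 64.2 and 96.3 at Peli1, 65.7 and 29.3 at Ube2v1, 13.1 and 12.3 at Brcc3, 35.6 and 23.6 at Rnf11, and 42.3 and 28.8 at Zranb1.

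The genes whose summed tag counts were most like each member's over the 12 lists were found by Pearson's correlation of log2(sum + 1) among 11866 genes with a peak in at least 6 lists, which is a description over lists that share depth and peak width. They were Poll, Mipep and Col16a1 for Tnfaip3 (r 0.99 for the first), Ccl3, Adap2 and Olfr110 for Tnip1 (0.97) and Tuba1c, Casp9 and Fadd for Tnip3 (0.97). For Cyld they were Pgm5, Med13l and Nr6a1 (0.97), for Otud7b Slit1, Srpk3 and Gm31513 (0.98), for Birc3 Cpa5, Slc13a1 and Lipk (0.95) and for Traf1 Fchsd2, Nck1 and Pcdh7 (0.99).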

How the data were processed

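CUT&RUN peak lists for p65 and SOCS1 (6 each) were analysed; of 20 samples, 6 IgG libraries served the authors as peak-calling background and 2 internal controls were not used here. Per the submitters' processing notes, reads were trimmed with cutadapt, aligned to mm10 with Bowtie2 2.4.1 and peaks called with HOMER 4.11. Per the file headers, findPeaks ran on each library alone with the matching IgG library as background, an FDR of 0.001, 4-fold enrichment over IgG and over the local 10 kb, a local Poisson p of 0.0001 and at most 1 tag per bp. The deposited signal is the Normalized Tag Count, scaled to 10000000 tags. The score, the fold ratios over IgG, local background and clonal expectation, the p-value and the focus ratio (a fraction) of each peak are the authors' own, used only to describe, rank or filter peaks within a list. The spike-in named in the labels was not used here.

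Tags were recovered as tag count times library tags over 10000000, and 100% of 258959 peaks came within 0.1 of a multiple of 0.5 tags. Gene spans came from RefSeq (GRCm38.p6) for 21883 protein-coding genes (autosomes, X and Y; symbols that occur once), and promoter sequences from the RefSeq table of the same build. Sums over windows were compared as ratios with exact conditional intervals, for genes with a peak in both lists, with a pseudocount of 1 only in the correlation. The members and the gene lists were chosen with earlier results of these data known. Named in full were sites called in at least 4 lists and each member's highest site. Assignment and intervals were tested on simulated data. Python 3.11.15, pandas 2.3.3, NumPy 2.4.6, SciPy 1.17.1 and matplotlib 3.10.9 were used. Alternatives covered the window, peak filters, merging and scaling.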

Additional observations from a re-analysis of the deposited data

Results flagged for a closer look

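For 5 results, the KO to WT ratio of a summed tag count pointed in opposite directions at 2 treatments, with each 95% counting interval on its own side of 1. With 1 library per group, none of these differences was tested.

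The p65 count of Tnip1 was lower in KO than WT cells in controls (ratio 0.638, interval 0.441 to 0.919), higher at 30 min (1.51, 1.42 to 1.61) and lower again at 8 h (0.509, 0.463 to 0.558), which gives a difference between control and 30 min and a second one between 30 min and 8 h. The counts were 61.4 against 96.3, 1598 against 1057 and 621 against 1221. The p65 count of Birc3 was lower in KO controls (0.443, 0.212 to 0.808), and higher at 30 min (2.02, 1.63 to 2.51) and at 8 h (1.31, 1.08 to 1.59), though the 8 h ratio was 0.635 per 100 bp of peak width. For the highest peak, at the promoter site in both lists, the ratio was 0.659 (0.300 to 1.27) in controls and 1.13 (0.826 to 1.54) at 30 min, so both intervals included 1. The control value rests on 17.6 against 39.7, and the IgG count was at its floor in 7 of 8 member p65 peaks of KO controls (91.4% over the whole list). The SOCS1 count of Tnip3 was higher in KO cells at 30 min (1.44, 1.07 to 1.93) and lower at 8 h (0.382, 0.209 to 0.675). At neither time was a site called in both genotypes, so these sums compare different sites and show no reversal at any site. The 30 min ratio was 0.827 per 100 bp of peak width and 0.964 when scaled to tags in peaks, and the 8 h ratio was 0.833 for the highest peak.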

How the results depend on the processing

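No paired analysis was possible because each group had 1 library, and for the same reason no library of a group could be left out. Counts of 7 genes move by large steps, and low counts rest on few tags. Moving the window to 20 kb, a common lowest score of 12, and merging by centres within 500 bp kept the counts of members, sites or shared peaks for which each was run within 1.5 times. Leaving out the p65 KO 8 h list or both KO control lists, 2 alternatives added after the data were seen and run for the number of sites alone, gave 81 and 79 sites against 82. The causes of the changes that follow were not tested.

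With peaks inside the span only, members with a peak were 2 in p65 KO controls and 4 in SOCS1 KO controls. With peaks at least 8-fold over local background, members with a p65 peak were 2 in WT controls, 3 in KO controls, 4 in KO cells at 30 min and 1 at 8 h, and members with a SOCS1 peak were 3 and 2 in WT cells at 30 min and 8 h. Sites numbered 34, and p65 peaks shared with SOCS1 were 4 and 3 in WT cells (30 min, 8 h) and 3, 3 and 0 in KO cells (control, 30 min, 8 h).

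Taking the highest peak of the window, members at least 2-fold higher were 2 for p65 in WT cells at 30 min, and 3 for SOCS1 in KO cells at 8 h, with 2 lower; 1 was lower for SOCS1 in WT cells at 8 h. In KO over WT, 0 were lower for p65 in controls, 0 higher at 30 min and 4 higher at 8 h, and for SOCS1 1 was higher in controls, and 0 higher and 0 lower at 8 h. Ratios that reversed were Otud7b p65 WT 8 h to control at 0.854, KO to WT p65 of Tnfaip3 at 1.20 and Tnip3 at 0.871 (30 min) and of Traf1 at 1.04 (8 h), and Tnip1 SOCS1 KO to WT at 8 h at 0.797.

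Per 100 bp of peak width, 1 member was lower for SOCS1 in WT cells at 8 h. In KO over WT, 2 were higher for p65 at 30 min and 3 lower at 8 h, and for SOCS1 1 was higher at 30 min and 0 at 8 h. KO to WT ratios that reversed were p65 at 8 h of Cyld at 0.900 and Birc3 at 0.635, SOCS1 at 30 min of Tnip3 at 0.827 and Traf1 at 0.884, and SOCS1 at 8 h of Tnip1 at 0.937.

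Scaled to tags in peaks, p65 against control in WT cells gave 0 higher and 2 lower at 30 min and 1 higher and 2 lower at 8 h, and in KO cells 2 higher and 2 lower at 30 min. SOCS1 against control gave 2 lower in WT cells at 30 min and 3 higher in KO cells at 8 h. In KO over WT, p65 gave 0 higher at 30 min and 1 lower at 8 h, and SOCS1 gave 0 higher and 3 lower in controls, 1 higher at 30 min and 0 higher at 8 h. Ratios of p65 to control that reversed were Cyld at 0.434, Otud7b at 0.547 and Birc3 at 0.358 in WT cells at 30 min, Cyld at 0.451, Otud7b at 0.418 and Birc3 at 0.951 in WT cells at 8 h, Tnip3 at 0.453 and Cyld at 0.356 in KO cells at 30 min, and Cyld at 0.512 in KO cells at 8 h. For SOCS1 these were Tnfaip3 in KO cells at 8 h to control at 1.11, and KO to WT of Otud7b at 0.970 (control), Tnip3 at 0.964 (30 min) and Tnip1 at 0.874 (8 h).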

Other observations

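Outside the 10 kb windows, and chosen after its values were seen, a site at chr10:19078005-19078259, 62.7 kb from Tnfaip3 on the side of its start site and nearer to it than to any other protein-coding gene, had some of the highest p65 tag counts of the series. The p65 count there was 962 in WT cells at 30 min (the 2nd highest of the list) and 709 at 8 h (the highest), and 1372 and 529 in KO cells (2nd and 15th). SOCS1 was 269 and 181 in WT cells and 188 and 113 in KO cells at the same times. The peaks assigned to Tnfaip3 itself reached 133 at most, and neither antibody had a peak at the distal site in control cells of either genotype.

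A site inside Nod2, a receptor for bacterial cell wall fragments, lies 46.5 kb from Cyld at chr8:88650236-88650490. Its p65 count was 536 in WT cells at 30 min (10th of the list) and 280.5 at 8 h, and 708 and 326 in KO cells. The highest p65 count among the peaks assigned to Cyld was 85.0.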
